A study of Mus musculus with 9 samples.

Results

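Fibroblast growth factors (FGFs) and their receptors were examined in cultured mouse fibroblasts through 10 named genes, 5 ligands (Fgf2, Fgf7, Fgf10, Fgf18 and Fgf21) and 5 receptors (Fgfr1, Fgfr2, Fgfr3, Fgfr4 and Fgfrl1), out of 51912 genes in the count table. The members were taken by symbol from a list drawn up with earlier results of these data known, and 8 of the 10 had enough reads to be tested among 14314 genes. Fgf18 and Fgfr4 did not pass that filter and are described by their levels. RNA was sequenced from 3 groups of 3 libraries, all of strain C57BL/6 and all grown in DMEM with serum. The first group was cancer-associated fibroblasts of genotype beta-catenin -/- (bcatKO_CAF), the second was wild type cancer-associated fibroblasts (CAF), fibroblasts of tumour tissue, and the third was wild type normal fibroblasts (NF). The sources used here do not give the tumour, the tissue, the animals or the way beta-catenin was deleted. Since no label ties the 3 libraries of a group to separate cultures, mice or clones, the p-values cover library-to-library spread alone, and that spread may be technical.

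FGFs are secreted proteins that bind, together with heparan sulfate on the cell surface, to receptor tyrosine kinases, which then signal through the adaptor FRS2 and the RAS-ERK cascade. In many tissues fibroblasts and other mesenchymal cells make FGF7 and FGF10, whose receptor is the IIIb splice form of FGFR2 on neighbouring epithelium, while fibroblasts themselves mostly carry IIIc forms of FGFR1. FGFRL1 binds FGFs but lacks the kinase domain. Sprouty, SPRED and DUSP proteins are made downstream of ERK and restrain it.

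Library totals ran from 15433810 to 21893574 counts, and 3 counts, taken here as the floor, correspond to 0.128 to 0.193 CPM (read counts after scaling all libraries to equal depth) in single libraries. CAF stood apart from the other groups, with Pearson r of log2(CPM + 1) across genes of 0.824 to 0.846 with bcatKO_CAF libraries and 0.825 to 0.839 with NF libraries, while bcatKO_CAF and NF libraries correlated at 0.932 to 0.994. NF replicate 1 was nearer to the bcatKO_CAF libraries (0.990 to 0.994) than to NF replicates 2 and 3 (0.957 and 0.943). Ctnnb1, the gene of beta-catenin, was at 668, 637 and 627 CPM in the libraries labelled bcatKO_CAF, against 855, 882 and 858 CPM in CAF and 713, 799 and 669 CPM in NF. A count over the whole gene takes in exons outside a deletion, so it does not check the genotype label. Xist was at 665 to 923 CPM in bcatKO_CAF, 257, 0.155 and 4.92 CPM in CAF, and 283 to 861 CPM in NF. The Y-linked gene Ddx3y ran the other way, at no more than 0.129 CPM in bcatKO_CAF, 18.4, 84.9 and 120.4 CPM in CAF, and no more than 0.185 CPM in NF. Sex-linked transcripts thus moved with the CAF group, so their part in the results below cannot be told apart from that group label and was not tested. Whether each library carries the right group label was not tested either, so bcatKO_CAF, CAF and NF stand throughout for the libraries labelled so.

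Thy1, a surface marker often used for fibroblasts, was at 0.0577 to 0.467 CPM in bcatKO_CAF, 1755 to 2187 CPM in CAF and 0.0426 to 0.633 CPM in NF, so it was near the floor in the 6 libraries outside CAF. Over the list of 12 fibroblast markers, summed levels were 11050 to 14891 CPM in bcatKO_CAF, 40436 to 60478 CPM in CAF and 5712 to 13278 CPM in NF, and 8 of the 12 were called in each comparison with CAF, all higher in CAF. Of these, Fap and S100a4 lost the call in CAF over NF under several alternatives, with adjusted p up to 0.0666 and 0.119. Vim, a mesenchymal intermediate filament, was abundant in every library, at 3817 to 5796 CPM. Smooth muscle and pericyte markers (8 genes) summed to 551 to 1139 CPM in bcatKO_CAF, 4566 to 6424 CPM in CAF and 161 to 819 CPM in NF, and 6 of the 8 were called higher in CAF in both comparisons. Cspg4, a pericyte proteoglycan, went the other way and made up most of the bcatKO_CAF and NF sums, at 540 to 1131 CPM in bcatKO_CAF, 84.7 to 100.5 CPM in CAF and 151 to 803 CPM in NF, and was called in both comparisons. Its log2 value in CAF over NF was -2.12, or -1.10 without NF replicate 1. Rgs5 was called lower in CAF than in NF (adjusted p = 0.021), and missed the threshold at adjusted p of 0.0699 to 0.0845 when NF replicate 2, CAF replicate 2 or CAF replicate 3 was left out. Markers of epithelium (8 genes) summed to 0.404 to 0.519 CPM in bcatKO_CAF, 30.6 to 39.0 CPM in CAF and 0.887 to 3.62 CPM in NF. Krt19 was at 14.4 to 33.1 CPM in CAF, while the defining epithelial genes Epcam and Cdh1 were at most 0.430 and 0.859 CPM in any library, and Krt8 and Krt14 had 0 counts in bcatKO_CAF. Endothelial markers (6 genes) summed to 1.16 to 1.35 CPM in bcatKO_CAF, 7.83 to 16.4 CPM in CAF and 1.96 to 2.56 CPM in NF. The macrophage and leukocyte list (6 genes) summed to 18.5 to 25.6 CPM in bcatKO_CAF, 4.63 to 7.23 CPM in CAF and 28.9 to 47.4 CPM in NF. The melanocyte list (8 genes) summed to 25.6 to 32.4 CPM in bcatKO_CAF, 11.5 to 15.2 CPM in CAF and 15.2 to 47.8 CPM in NF, and Tyr, Tyrp1 and Mlana had 0 counts in bcatKO_CAF. Several of these summed levels differed between the same groups as the FGF genes, and their part in the FGF results was not tested. In bulk RNA, fewer cells of a type and less RNA per cell cannot be told apart.

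The 10 genes lie on 7 chromosomes, and their start regions differ in base composition. Promoter windows from RefSeq (GRCm38.p6, from 250 bases before to 50 bases after the start) were found for 9 of the 10 members. The 4 windows below belong to the ligand with the highest CAF level, the ligand and the receptor with the largest called differences between bcatKO_CAF and CAF, and the member that differed the other way. They are written 5′ to 3′ on the strand of the gene, and capitals mark the only match to a TCF/LEF core, the DNA motif of the factors that beta-catenin partners.
Fgf7 (chr2:126034408-126034707, plus strand): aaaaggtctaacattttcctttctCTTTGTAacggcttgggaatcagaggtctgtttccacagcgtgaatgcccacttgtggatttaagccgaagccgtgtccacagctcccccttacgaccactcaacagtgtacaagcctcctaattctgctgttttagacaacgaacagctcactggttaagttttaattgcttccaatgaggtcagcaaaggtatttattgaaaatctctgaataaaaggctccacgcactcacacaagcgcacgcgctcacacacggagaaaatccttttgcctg
Fgf10 (chr13:118714449-118714748, plus strand): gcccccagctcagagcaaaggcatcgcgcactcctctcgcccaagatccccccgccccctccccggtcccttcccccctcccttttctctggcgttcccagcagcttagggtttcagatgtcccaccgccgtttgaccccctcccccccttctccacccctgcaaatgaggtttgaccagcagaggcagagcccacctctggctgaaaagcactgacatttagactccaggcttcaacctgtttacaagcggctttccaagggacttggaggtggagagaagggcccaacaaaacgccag
Fgfr2 (chr7:130266759-130267058, minus strand): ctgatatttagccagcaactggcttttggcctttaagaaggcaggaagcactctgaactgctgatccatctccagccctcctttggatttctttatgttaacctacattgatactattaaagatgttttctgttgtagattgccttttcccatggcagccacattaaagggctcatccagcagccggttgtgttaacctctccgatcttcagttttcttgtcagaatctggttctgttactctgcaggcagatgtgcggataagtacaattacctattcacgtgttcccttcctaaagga
Fgfrl1 (chr5:108693979-108694278, plus strand): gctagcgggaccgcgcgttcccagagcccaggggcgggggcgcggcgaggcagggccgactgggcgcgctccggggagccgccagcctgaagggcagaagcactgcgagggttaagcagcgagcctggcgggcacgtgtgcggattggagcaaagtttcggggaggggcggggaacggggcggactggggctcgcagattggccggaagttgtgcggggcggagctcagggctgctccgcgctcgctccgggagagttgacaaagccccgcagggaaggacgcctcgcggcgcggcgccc

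The core searched was CTTTGNN with A or T at each N, in 4 spellings and on both strands. Of the 10 member windows (Fgfr3 has 2), only that of Fgf7 held a match, CTTTGTA at 226 bases before the start. Among all 32851 windows in the table, 16.9% held at least 1 of the 4 spellings and 3.63% held that of Fgf7. GGAATG, the core bound by TEAD factors, which shares no overlap with this core, was found in the Fgfr4 window alone among the members and in 14.7% of all windows. The Fgfr2 and Fgf7 windows had a GC content of 43.7% and 45.7%, under the median of 52.7% over all windows. The Fgf10 window had 60.7% and the Fgfrl1 window 73.7%, with 10 and 37 CpG sites. A match or its absence in these letters describes the window only.

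Among the ligands, CAF libraries held more Fgf2, Fgf7, Fgf10 and Fgf21 RNA than either other group. Fgf7 (keratinocyte growth factor; chromosome 2 from 126034658 to 126091185, plus strand, GRCm38) was the most abundant ligand by length in every group. Its level was 89.1, 97.4 and 96.6 CPM in bcatKO_CAF, 296, 212 and 156 CPM in CAF, and 85.1, 51.3 and 57.6 CPM in NF. All 3 CAF libraries lay above the other 6, and the 3 bcatKO_CAF libraries, which were close to each other, also lay above the 3 NF libraries. The log2 fold change was 1.78 ± 0.26 (SE) in CAF over NF and -1.23 ± 0.26 in bcatKO_CAF over CAF, with adjusted p of 0.000564 and 0.0039 in edgeR's quasi-likelihood test.

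**Figure D1:**
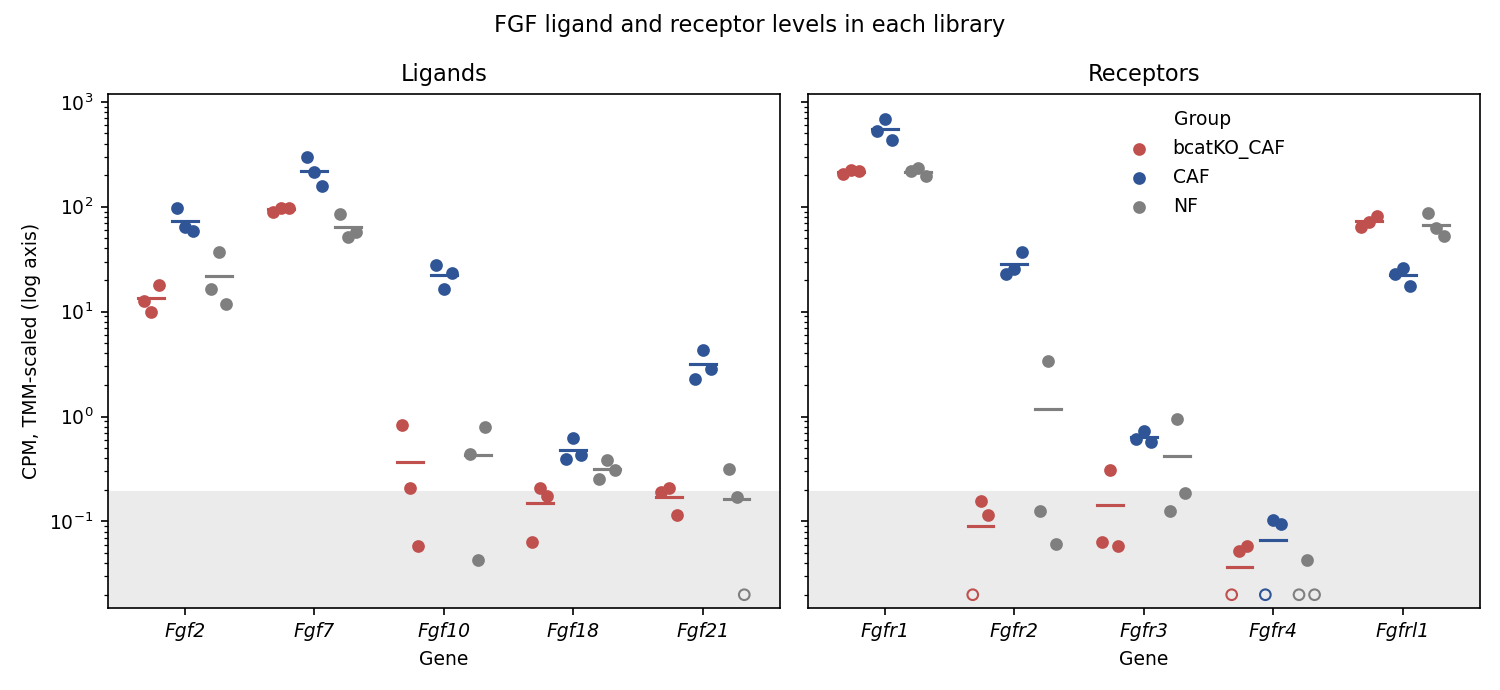
Levels of the 5 ligands (left) and 5 receptors (right) in single libraries, in CPM on TMM-scaled library sizes on a log axis, for bcatKO_CAF, CAF and NF. Filled points are libraries, short bars are group means, open circles at the bottom are libraries with 0 counts, and the grey band reaches up to the highest 3-count floor (0.193 CPM). CAF points sit above those of the other groups for most members and below them for Fgfrl1.

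Fgf10 (chromosome 13 from 118669791 to 118792115, plus strand), another ligand of FGFR2 IIIb and a factor needed for limb and lung budding, showed the largest difference among the ligands. Its level was 0.835, 0.208 and 0.0577 CPM in bcatKO_CAF, 27.6, 16.5 and 23.1 CPM in CAF, and 0.443, 0.0426 and 0.80 CPM in NF. Several of the bcatKO_CAF and NF values were at or near the floor, and every CAF library was far above it. Summed counts were 18 in bcatKO_CAF and 1295 in CAF, a ratio of 64.6-fold lower in bcatKO_CAF (95% counting interval 40.7 to 109). Against the 21 counts of NF, the CAF level was 58.9-fold higher (38.4 to 95.5). The fitted log2 fold changes were -5.96 ± 0.83 (adjusted p = 0.00043) in bcatKO_CAF over CAF and 5.77 ± 0.82 (adjusted p = 0.000466) in CAF over NF. With single libraries left out, the bcatKO_CAF over CAF value ran from -7.29 (without bcatKO_CAF replicate 1) to -5.46. The CAF over NF value moved to 5.15 and 6.67 without NF replicates 2 and 3, and the calls of both comparisons were kept. Gm16263, an antisense gene sharing 123 bases of exon with Fgf10, was itself at 0.466 to 0.728 CPM in CAF and had 0 counts in the other 6 libraries. The strand setting of the counting is unknown, so reads of that overlap cannot be assigned.

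Fgf21 (chromosome 7 from 45613886 to 45615490, minus strand) encodes an endocrine FGF made mainly by the liver. The bcatKO_CAF libraries read 0.193, 0.208 and 0.115 CPM, the CAF libraries 2.30, 4.30 and 2.86 CPM, and the NF libraries 0.317, 0.171 and 0 CPM. Only the CAF libraries were clearly above the floor. The ratio of summed counts (9 in bcatKO_CAF, 184 in CAF, 9 in NF) was 18.3-fold lower in bcatKO_CAF than in CAF (9.46 to 40.8) and 19.5-fold higher in CAF than in NF (10.1 to 43.4), with adjusted p of 0.00091 and 0.000841 in the edgeR fit. The fitted log2 value in CAF over NF was 4.23 with all libraries, and ran from 3.71 to 4.93 (without NF replicate 1) with single libraries left out. Klb, the co-receptor that FGF21 needs, had 0 counts in all 9 libraries.

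Fgf2 (chromosome 3 from 37348346 to 37410108, plus strand), basic FGF, a mitogen for fibroblasts that leaves cells without a signal peptide, followed with a smaller difference. Its level was 12.6, 10.0 and 17.8 CPM in bcatKO_CAF, 98.3, 63.8 and 59.0 CPM in CAF, and 16.3, 36.8 and 11.9 CPM in NF. CAF did not overlap with either other group, whereas bcatKO_CAF and NF overlapped. The log2 fold change was -2.45 ± 0.43 in bcatKO_CAF over CAF (adjusted p = 0.00154) and 1.76 ± 0.41 in CAF over NF (adjusted p = 0.00794). With single libraries left out, the CAF over NF value ran from 1.46 to 2.38 (without NF replicate 2), with edgeR adjusted p up to 0.0328. Nudt6, the antisense neighbour that overlaps Fgf2 exons, was between 2.75 and 4.12 CPM in every library and did not separate the groups. Gm43439, on the same strand as Fgf2, also overlaps its exons, and its level was not examined. Nor were the levels of Gm16159 and G630022F23Rik, which overlap exons of Fgfr1 and Fgfr3.

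Fgf18 (chromosome 11 from 33117430 to 33147400, minus strand), a ligand known from skeletal growth, stayed near the floor. The libraries were at 0.0643, 0.208 and 0.173 CPM in bcatKO_CAF, 0.392, 0.621 and 0.430 CPM in CAF, and 0.253, 0.384 and 0.308 CPM in NF. The 3 groups did not overlap, but they rest on 8, 28 and 18 summed counts in bcatKO_CAF, CAF and NF. The ratio of bcatKO_CAF to CAF was 3.14-fold lower (1.39 to 7.98), and the interval of CAF over NF, 0.793 to 2.85, included no difference. Exact two-sided permutation p-values were 0.1 in all 3 comparisons, the smallest that 3 against 3 libraries can give.

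Among the receptors, Fgfr1 and Fgfr2 were higher in CAF and Fgfrl1 was lower, while Fgfr3 and Fgfr4 were close to the floor. Fgfr1 (chromosome 8 from 25513654 to 25575718, plus strand), the main FGF receptor of mesenchymal cells, was at 203, 223 and 219 CPM in bcatKO_CAF, 522, 689 and 436 CPM in CAF, and 217, 232 and 194 CPM in NF. All 3 bcatKO_CAF libraries fell inside the NF range, and all CAF libraries were higher. The log2 fold change was -1.35 ± 0.18 in bcatKO_CAF over CAF (adjusted p = 0.000371) and 1.36 ± 0.18 in CAF over NF (adjusted p = 0.000357).

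Fgfr2 (chromosome 7 from 130162451 to 133123350, minus strand) gave the largest difference of all members. It had 0, 3 and 2 counts in the bcatKO_CAF libraries, 412, 493 and 782 counts in CAF, and 2, 79 and 1 counts in NF. In CPM these are 0, 0.156 and 0.115 in bcatKO_CAF, 23.1, 25.5 and 37.3 in CAF, and 0.127, 3.37 and 0.0615 in NF. Every bcatKO_CAF library was at or below the floor, and NF replicate 2 stood apart from the other NF libraries. The ratio of summed counts was 303-fold lower in bcatKO_CAF than in CAF (130 to 934) and 19.6-fold higher in CAF than in NF (15.7 to 24.8). In the edgeR fit the adjusted p was 0.00104 for bcatKO_CAF over CAF, where the log2 value was -8.14 ± 1.32. With single libraries left out, that value ran from -8.74 (without bcatKO_CAF replicate 2) to -7.64. For CAF over NF the adjusted p was 0.00564 with a log2 value of 4.49 ± 0.99, which ran from 3.96 to 8.15 (without NF replicate 2). NF replicate 2 was also the NF library with the highest epithelial marker sum (3.62 CPM), of which Krt18 made up 1.88 CPM, with 0 counts of Krt18 in NF replicates 1 and 3. Whether this sum and the Fgfr2 level of that library are linked was not tested. Counts per gene do not separate the IIIb and IIIc splice forms. Ctbp2, which shares 314 bases of exon with the long Fgfr2 annotation, ran from 65.9 to 84.5 CPM across all libraries and did not follow Fgfr2.

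Fgfr3 (chromosome 5 from 33721674 to 33737068, plus strand), a receptor best known from cartilage, was at 0.0643, 0.311 and 0.0577 CPM in bcatKO_CAF, 0.616, 0.725 and 0.573 CPM in CAF, and 0.127, 0.938 and 0.185 CPM in NF. All bcatKO_CAF libraries lay below all CAF libraries, while NF replicate 2 exceeded every CAF library. Neither comparison with CAF passed the test, with log2 values of -2.04 ± 0.84 (adjusted p = 0.076) in bcatKO_CAF over CAF and 0.52 ± 0.73 (adjusted p = 0.611) in CAF over NF. Without NF replicate 2 the CAF over NF value was 1.98 (adjusted p = 0.0613), and without bcatKO_CAF replicate 2 the bcatKO_CAF over CAF value was -3.25 (adjusted p = 0.0458). Fgfr4 (chromosome 13 from 55152640 to 55168759, plus strand), a receptor of liver and muscle progenitors, had 0, 1 and 1 counts in bcatKO_CAF, 0, 2 and 2 in CAF and 0, 1 and 0 in NF, so no difference was detectable at this depth.

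Fgfrl1 (chromosome 5 from 108692382 to 108706924, plus strand), the receptor without a kinase domain, was the only member called in the opposite direction. It stood at 64.4, 72.0 and 81.1 CPM in bcatKO_CAF, 22.9, 26.3 and 17.4 CPM in CAF, and 87.6, 62.2 and 52.5 CPM in NF. Every CAF library was below every library of the other groups, which overlapped each other. Its log2 fold change was 1.71 ± 0.23 in bcatKO_CAF over CAF (adjusted p = 0.000323) and -1.61 ± 0.23 in CAF over NF (adjusted p = 0.000454).

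**Figure D2:**
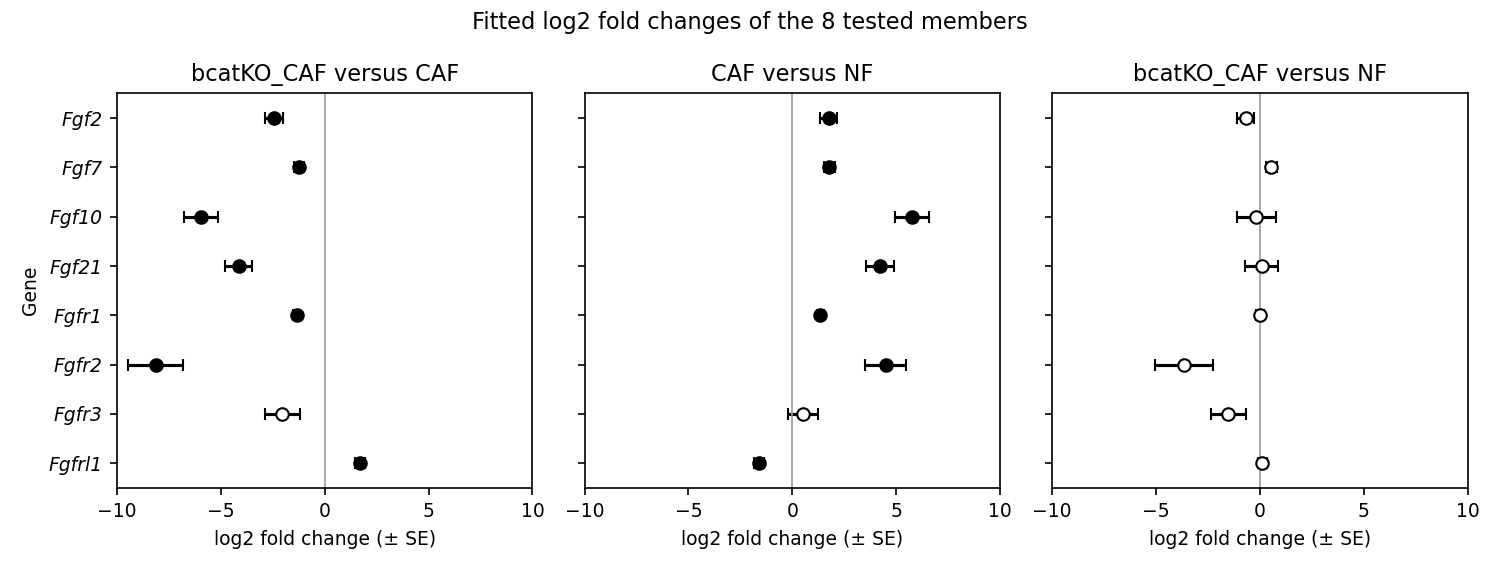
Fitted log2 fold changes of the 8 tested members in bcatKO_CAF over CAF, CAF over NF and bcatKO_CAF over NF, with standard errors as bars. Filled points have an edgeR adjusted p under 0.05 over all 14314 genes. Fgfr2 and Fgf10 lie farthest from 0 in the comparisons with CAF, Fgfrl1 lies on the other side of 0 from the called members, and no point of bcatKO_CAF over NF is filled.

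Counted over the members, bcatKO_CAF against CAF gave 1 of 8 tested members higher and 6 lower, where 44.2% of all tested genes were called in this comparison, 21.5% higher and 22.7% lower. The median log2 fold change was -2.24 over the 8 members and -0.01 over all tested genes. The groups did not overlap for 8 of the 8 tested members, 1 higher and 7 lower, nor for Fgf18, which was not tested, against 65.7% of tested genes, 32.4% higher and 33.3% lower. For CAF against NF, 6 of the 8 were higher and 1 was lower, where 39.9% of all tested genes were called, 20% higher and 19.9% lower. The medians were 1.77 over the members and -0.04 over all tested genes, and 7 of the 8 tested members, 6 higher and 1 lower, and the untested Fgf18 had groups without overlap, against 48.2% of tested genes, 24.6% higher and 23.6% lower. Both comparisons contain the same CAF libraries, so the opposite signs in them are not independent of each other. Fgf10, Fgf21, Fgfr2 and Fgfr3 had enough reads to be tested only through their CAF libraries. For them the filter itself favoured a higher level in CAF. The members were also chosen with earlier results of these data known. These counts and medians thus describe the 8 genes and do not test them as a set. Total counts as the scaling shifted the median of all genes by -0.16 in CAF over NF, where the share of calls that were higher went to 39.7% in place of 50.2%, and by 0.14 in bcatKO_CAF over CAF, and left every call and called direction of the members in place.

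Set against NF directly, 0 of the 8 tested members were called in bcatKO_CAF fibroblasts, as were 0% of all tested genes. At an unadjusted p under 0.05, edgeR's quasi-likelihood test gave 702 of the 14314 genes, 1 of them a member, Fgfr2. DESeq2 called 6 genes and limma-voom 0, none of them a member. The log2 fold change in bcatKO_CAF over NF was 0.0041 ± 0.18 for Fgfr1, 0.10 ± 0.22 for Fgfrl1, 0.08 ± 0.80 for Fgf21, -0.18 ± 0.93 for Fgf10 and -0.69 ± 0.41 for Fgf2. For Fgf7 it was 0.55 ± 0.25 (adjusted p = 0.601), and the bcatKO_CAF libraries lay wholly above NF. It was the only 1 of the 8 tested members without overlap, and the untested Fgf18 lay wholly below NF, against 6.87% of tested genes, 3.23% higher and 3.64% lower. The value of Fgfr2, -3.65 ± 1.40, rests on NF replicate 2 and was 0.02 without it, and that of Fgfr3 was -1.52 ± 0.86. A p that misses the threshold does not show that these levels are alike, and the errors of Fgf10, Fgf21 and Fgfr2 are wide. Without NF replicate 1, 2659 genes were called, among them Fgf7 (0.81, adjusted p = 0.0455) and Fgfr2 (-4.15, adjusted p = 0.0462).

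Levels of different genes were compared per length, in CPM per kilobase of exon (RPKM). In bcatKO_CAF the order was Fgf7 (29.0), Fgfrl1 (26.1), Fgfr1 (21.8) and Fgf2 (1.99 RPKM), with the other 6 members under 0.2 RPKM. Fgf7 and Fgfrl1 overlapped in that group, whereas Fgfrl1 and Fgfr1, and Fgfr1 and Fgf2, did not. In CAF the order was Fgf7 (68.1), Fgfr1 (55.6), Fgf2 (10.9), Fgfrl1 (7.97), Fgf10 (4.87), Fgf21 (3.32), Fgfr2 (2.77), Fgf18 (0.405), Fgfr3 (0.0891) and Fgfr4 (0.0187 RPKM). Fgf7 overlapped with Fgfr1, Fgf2 with Fgfrl1, and Fgf10 with Fgf21 and Fgf21 with Fgfr2, while the other neighbours were separated. In NF, Fgfrl1 (24.2), Fgfr1 (21.7) and Fgf7 (19.9 RPKM) overlapped in that order, followed at a distance by Fgf2 (3.20 RPKM), and the remaining members were under 0.3 RPKM.

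The kinase-bearing receptors, Fgfr1 to Fgfr4 together, summed to 20.6 to 22.7 RPKM in bcatKO_CAF, 47.9 to 72.4 RPKM in CAF and 19.7 to 23.9 RPKM in NF. Fgfr1 alone made up 99.7% to 99.96% of that sum in bcatKO_CAF, 92.2% to 96.4% in CAF and 98.0% to 99.9% in NF. The remainder in CAF was almost all Fgfr2, at 3.42% to 7.55% of the sum, against at most 0.0665% in bcatKO_CAF and 1.36% in NF replicate 2. Relative to this sum, Fgfrl1 was at a ratio of 1.12, 1.14 and 1.31 in bcatKO_CAF, 0.149, 0.130 and 0.130 in CAF, and 1.43, 0.934 and 0.958 in NF. Per length, the RNA for the receptor without a kinase thus about equalled that of the kinase-bearing receptors in bcatKO_CAF and NF and was several-fold lower in CAF, with no overlap. The near equality depends on the merged exon lengths used, 9875 bases for Fgfr1 and 2782 for Fgfrl1. In CPM the means of Fgfr1 and Fgfrl1 were 215 and 72.5 in bcatKO_CAF, 549 and 22.2 in CAF, and 214 and 67.4 in NF. Fgf7 made up 91.1% to 94.0% of the ligand sum in bcatKO_CAF, 73.7% to 79.7% in CAF and 72.6% to 89.6% in NF.

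**Figure D3:**
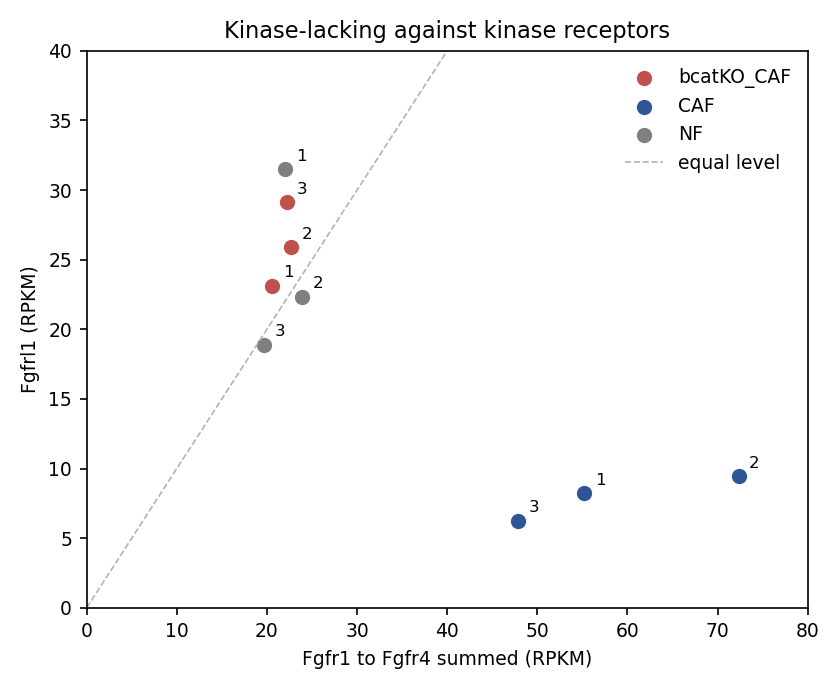
Fgfrl1 level against the summed level of Fgfr1 to Fgfr4 in each of the 9 libraries, both in RPKM, with the line of equal levels. The bcatKO_CAF and NF libraries lie near the line, at ratios of 0.934 to 1.43, and the 3 CAF libraries lie far below it, at 0.130 to 0.149. Nearness to the line depends on the merged exon lengths behind RPKM.

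Profiles over the 9 libraries were compared for the ligand and the receptor with the highest levels, as the root mean square difference between log2 CPM profiles after centring, over 10371 genes. The profiles nearest to that of Fgf7 were those of Prkd1 (0.18), Gng12 (0.19) and Lrrc8c (0.21), where the median gene was at 0.87. For Fgfr1 they were Zyx (0.11), Tnrc18 (0.12) and Ap2a2 (0.13), with a median of 0.75.

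Around these ligands and receptors, other parts of the pathway were read from the same fit, and 0 members of the lists that follow were called between bcatKO_CAF and NF with all libraries. Without NF replicate 1, between 1 and 5 genes of each list beyond the FGFs themselves were called there. Of the 13 other secreted FGFs only Fgf1 had enough reads, and it was higher in bcatKO_CAF than in CAF (2.04 ± 1.02 CPM against 0.937 ± 0.162, SD, n = 3 each; adjusted p = 0.0484) and lower in CAF than in NF (2.62 ± 0.581 CPM; adjusted p = 0.0154). The call against CAF was lost under any of several settings, among them without bcatKO_CAF replicate 1 (adjusted p = 0.214), and the call against NF without CAF replicate 2 (adjusted p = 0.0567) or 3 (adjusted p = 0.0593). Fgf5 and Fgf9 missed the filter on low counts and passed it when any single bcatKO_CAF or NF library was left out, and were then called higher in CAF. They passed it through CAF libraries alone, so that direction was set by passing and is no separate result. Fgf5 was at 0.0192 ± 0.0333 CPM in bcatKO_CAF, 1.34 ± 0.997 CPM in CAF and 0 in NF. Fgf9 was at 0.0407 ± 0.0354 CPM in bcatKO_CAF, 0.861 ± 0.327 CPM in CAF and 0.128 ± 0.128 CPM in NF. Of the 4 intracellular FGF homologous factors, which bind sodium channels and do not act as secreted ligands, Fgf12 had 0 counts in bcatKO_CAF and NF and 59 in CAF, at least 17.7-fold lower in bcatKO_CAF and at least 18.8-fold higher in CAF than in NF with the group at 0 set to the floor of 3 counts in all. Fgf14 was higher in bcatKO_CAF (0.714 ± 0.211 CPM) than in CAF (0.108 ± 0.101 CPM), with adjusted p = 0.00669, and its log2 value of 2.70 was 3.68 without CAF replicate 1. It was lower in CAF than in NF (1.17 ± 0.409 CPM; adjusted p = 0.00172), where its log2 value of -3.41 was -4.39 without CAF replicate 1. With 4, 1 and 1 counts in CAF, Fgf14 was tested only through bcatKO_CAF and NF libraries, so the filter itself favoured a lower level in CAF. The filter of CPM of at least 1 dropped it, as did the fit of the 6 libraries of bcatKO_CAF over CAF.

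The shares of all tested genes called, 44.2% in bcatKO_CAF over CAF (21.5% higher, 22.7% lower) and 39.9% in CAF over NF (20% higher, 19.9% lower), stand as the background of the list counts that follow, and no difference between lists was tested. Fgf12, Gpc2, Gpc3, Hs3st1 and Esrp2 passed the filter through CAF libraries alone, so their direction went with being tested. Among 13 tested co-receptors and FGF-binding proteins, 4 were higher and 4 lower in bcatKO_CAF than in CAF, with a median log2 fold change of -0.31, and 4 were higher and 5 lower in CAF than in NF, with a median of 0.70. Syndecans and glypicans, which carry heparan sulfate chains that hold FGFs at the membrane, moved in both directions. Gpc3 was at 0.0906 ± 0.106 CPM in bcatKO_CAF, 29.0 ± 15.3 CPM in CAF and 0.0843 ± 0.0378 CPM in NF. Its log2 value in bcatKO_CAF over CAF was -8.15, or -9.60 without bcatKO_CAF replicate 2. Gpc4 was at 129 ± 1.44 CPM in bcatKO_CAF, 366 ± 29.3 CPM in CAF and 114 ± 4.07 CPM in NF. Sdc4 moved the other way, at 426 ± 32.8 CPM in bcatKO_CAF, 99.6 ± 32.1 CPM in CAF and 488 ± 107 CPM in NF, and so did Sdc2, Gpc1 and Flrt3. Gpc2 had 0 counts in bcatKO_CAF and NF and 54 in CAF, at least 16.2-fold lower in bcatKO_CAF and at least 17.2-fold higher in CAF than in NF. Without NF replicate 1 the number called higher in CAF over NF was 8, with Flrt1, Sdc3, Gpc6 and Hspg2 added, and Fgfbp3, lower in CAF than in NF (adjusted p = 0.021), lost its call (adjusted p up to 0.0766) when replicate 2 or 3 of either group was left out.

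Enzymes that build, trim or cut heparan sulfate (18 tested) gave 5 higher and 7 lower in bcatKO_CAF than in CAF, where 21.5% and 22.7% of all tested genes were called, with a median of -0.21, and 8 higher and 3 lower in CAF than in NF, where 20% and 19.9% were called, with a median of 0.40. The sulfotransferase Hs6st2 was at 3.76 ± 2.15 CPM in bcatKO_CAF, 319.8 ± 70.1 CPM in CAF and 2.42 ± 1.82 CPM in NF. Sulf1, which removes 6-O-sulfates, was at 5.50 ± 0.862 CPM in bcatKO_CAF, 321 ± 92.8 CPM in CAF and 4.02 ± 0.751 CPM in NF. Hpse, the heparanase that cuts the chains, was at 289 ± 57.2 CPM in bcatKO_CAF, 4.83 ± 1.05 CPM in CAF and 153 ± 75.0 CPM in NF. Hs3st1, which adds 3-O-sulfates, had 0 counts in bcatKO_CAF and NF and 114 in CAF, at least 34.1-fold lower in bcatKO_CAF and at least 36.3-fold higher in CAF than in NF. With total counts as the scaling, the CAF over NF split of this list was 5 higher and 5 lower. Ext1, Hs2st1, Hs6st1 and Extl1 each lost the CAF over NF call under several alternatives, among them leaving out single libraries. In bcatKO_CAF over CAF, Hs2st1 and Extl3 lost theirs when certain single libraries were left out.

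Adaptors and core proteins of the RAS-ERK cascade (21 tested) gave 2 higher and 8 lower in bcatKO_CAF than in CAF (median -0.23), a share near the 44.2% of all tested genes, and 6 higher and 2 lower in CAF than in NF (median 0.21), near the 39.9% of all tested genes. Ptpn11, the phosphatase SHP2, was at 177 ± 5.40 CPM in bcatKO_CAF, 407 ± 18.6 CPM in CAF and 184 ± 25.1 CPM in NF. Sos2, an exchange factor for RAS, and Mapk3, which encodes ERK1, were the 2 that were higher in bcatKO_CAF than in CAF and lower in CAF than in NF. The number lower in bcatKO_CAF was 5 without CAF replicate 2, without bcatKO_CAF replicate 1 or without bcatKO_CAF replicate 3, and 4 with total counts as the scaling.

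Feedback regulators of ERK and ETV factors, many of them known to be induced by FGF signals, included many genes that were higher in bcatKO_CAF than in CAF. Of 13 tested, 8 were higher and 2 lower in bcatKO_CAF than in CAF, and 2 were higher and 9 lower in CAF than in NF, with medians of 1.24 and -1.29. Among the 9, Spred3 lost its call without CAF replicate 3 (edgeR adjusted p = 0.0598) or NF replicate 3 (0.0756). It also lost it in a fit of the 6 libraries of that comparison (0.0546). Over all tested genes 21.5% were higher and 22.7% lower in bcatKO_CAF than in CAF, and 20% higher and 19.9% lower in CAF than in NF. Spry4 was at 408 ± 38.7 CPM in bcatKO_CAF, 46.3 ± 6.16 CPM in CAF and 443 ± 104 CPM in NF. Etv1 was at 114 ± 11.6 CPM in bcatKO_CAF, 6.44 ± 1.61 CPM in CAF and 104.6 ± 35.3 CPM in NF. Dusp6, an ERK phosphatase commonly used to read FGF signals, was at 161 ± 8.92 CPM in bcatKO_CAF, 61.2 ± 4.89 CPM in CAF and 162 ± 35.6 CPM in NF. Spry1, a Sprouty, and Il17rd, a membrane inhibitor of FGF receptors also known as Sef, were called in the opposite direction. Il17rd was at 3.75 ± 0.504 CPM in bcatKO_CAF, 32.3 ± 6.51 CPM in CAF and 3.36 ± 1.25 CPM in NF, and Spry1 at 31.5 ± 8.70 CPM in bcatKO_CAF, 136 ± 14.3 CPM in CAF and 35.2 ± 21.8 CPM in NF. The log2 value of Spry1 in CAF over NF was 1.95, or 2.56 without NF replicate 3. These are RNA levels, and no measure of ERK activity was made.

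Regulators of FGFR2 splicing were also read, since the choice between IIIb and IIIc exons depends on them. Esrp1, on the same list, missed the filter, with 1, 0 and 4 counts in the CAF libraries. Esrp2, an epithelial factor that promotes IIIb, was at 0.0173 ± 0.0300 CPM in bcatKO_CAF, 4.89 ± 2.13 CPM in CAF and 0.0552 ± 0.0625 CPM in NF. Its log2 value was -7.57 ± 0.86 in bcatKO_CAF over CAF (adjusted p = 0.000134; -9.49 without bcatKO_CAF replicate 2) and 6.32 ± 0.75 in CAF over NF (adjusted p = 0.000172; 7.26 without NF replicate 3). Ptbp2 was higher in bcatKO_CAF (53.6 ± 3.53 CPM) than in CAF (23.8 ± 6.26 CPM), and lower in CAF than in NF (49.2 ± 5.54 CPM). Of the 5 tested regulators, 1 was higher and 2 were lower in bcatKO_CAF than in CAF, namely Esrp2 and Ptbp1, which was at the edge of the threshold (adjusted p = 0.04997), a call lost without any single library of the comparison. In CAF over NF, 1 was higher and 1 lower, and without NF replicate 1 these were 2 and 2. Within NF, Esrp2 had 0, 1 and 2 counts in replicates 1, 2 and 3, where Fgfr2 had 2, 79 and 1. Between CAF and the other groups, the summed epithelial markers moved with Esrp2 and Fgfr2 in the ranges given above, and their part in both was not tested. Single markers did not all do so. Krt8 had 6 counts in CAF and 13 in NF, and Epcam and Cdh1 were low in every library. Krt14, which missed the filter, had 131 counts in CAF, 9 in NF and 0 in bcatKO_CAF. Of the 2 epithelial markers tested, Krt18 and Krt19, only Krt19 was called in CAF over NF. In bcatKO_CAF over CAF both were called lower. There Krt18 lost its call without CAF replicate 2 or bcatKO_CAF replicate 1 or 2 (edgeR adjusted p up to 0.0664).

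**Figure D4:**
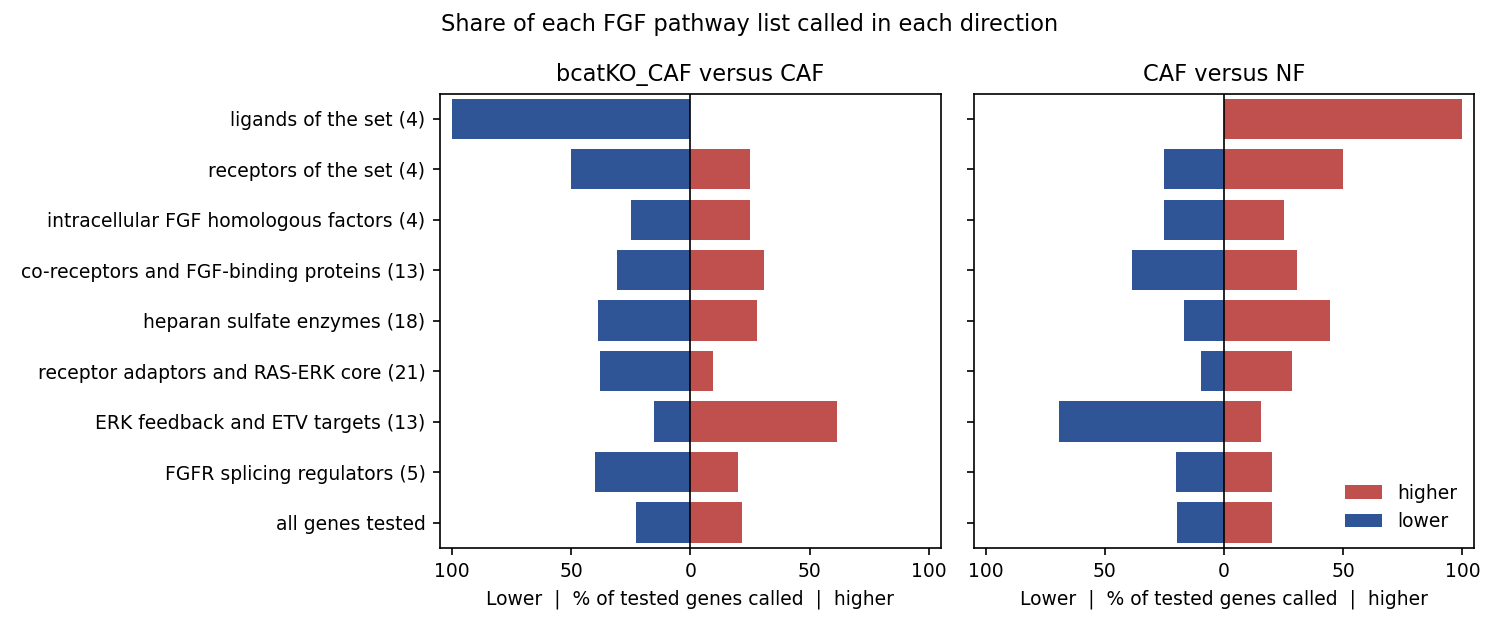
Share of the tested genes of each FGF pathway list called lower (blue, to the left) and higher (red, to the right) in bcatKO_CAF over CAF (left) and in CAF over NF (right), in percent of the genes tested, whose number stands beside each name, with all tested genes at the bottom. The ligands of the set lie on one side in each comparison, 4 of 4 lower and then 4 of 4 higher. Of these, Fgf10 and Fgf21 were tested only through their CAF libraries, so the filter itself favoured that side. The members were also chosen with earlier results of these data known. The ERK feedback and ETV list has 8 of 13 higher in bcatKO_CAF over CAF and 9 of 13 lower in CAF over NF. The other lists drawn have calls on both sides (the list of other secreted FGFs, with only Fgf1 tested, is not drawn).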

How the data were processed

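Total RNA of 9 samples of cultured mouse fibroblasts, 3 per group, was sequenced by Illumina protocols, per the labels. The authors deposited raw counts of reads for each Ensembl gene, and the table of the whole series and the single files differed in 0 cells. Per the submitters' processing notes, bcl2fastq, TopHat, edgeR and build mm10 were used, with no versions. The sources used here do not give the counter, its strand setting or the annotation. Symbols matched 51633 of 51912 IDs, and positions and exon lengths came from GENCODE M21 on GRCm38, the assembly behind mm10.

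Groups came from the tissue and genotype labels. After filterByExpr and TMM scaling, 1 quasi-likelihood model with a term for group took in all 9 libraries (edgeR 4.0.16, limma 3.58.1, R 4.3.3), with Benjamini-Hochberg adjustment over 14314 genes and calls under 0.05. Standard errors came from the F statistic. CPM used the TMM library sizes, and RPKM was computed from it per kilobase of merged exons. Counting intervals (95%, exact binomial on summed counts) and floors cover counting error only. Genes named beside the 10 members were the called genes of each pathway list, at most 4 per comparison by fold change, members of counts of 5 or fewer, Ctnnb1 and the 3 nearest profiles. Sulf1, Gpc4, Dusp6, Fgf5, Fgf9, the sex-linked, marker and overlapping genes were chosen after their values were seen or lie outside that rule. The members and lists were chosen with earlier results of these data known. Alternatives were RLE scaling, total counts, no filter, a stricter filter (3 libraries with 1 CPM or more), limma-voom, DESeq2 1.42.0, a fit of the 6 libraries of a comparison and leaving out each library. Group means without each library and list counts under the alternatives were added after seeing the data. The scripts were tested on simulated counts. Values of some genes that the naming rule covers are not reported here.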

Additional observations from a re-analysis of the deposited data

How the results depend on the processing

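The 7 called members kept their direction and their call in bcatKO_CAF over CAF and in CAF over NF under every alternative run. Of 305 alternative values of single members, 290 kept direction and side of the threshold, 5 passed it anew and 10 changed sign, all 10 in bcatKO_CAF over NF and uncalled. With single libraries left out, the log2 values there ranged from -1.52 to 0.70 for Fgf10, -0.44 to 0.79 for Fgf21, -0.064 to 0.063 for Fgfr1, -4.24 to 0.021 for Fgfr2 and -0.048 to 0.35 for Fgfrl1, and Fgfr1 was at -0.026 with total counts. Fgfr3 in bcatKO_CAF over CAF was also called by limma-voom (-2.20, adjusted p = 0.0426) and in a fit of the 6 libraries of that comparison (-2.01, adjusted p = 0.0165), and the log2 value of Fgfr2 in CAF over NF was 6.07 in limma-voom. The filter of CPM of at least 1 dropped Fgfr3, so it gave no value. With no filter, Fgf18 had adjusted p of 0.116 in bcatKO_CAF over CAF, 0.554 in CAF over NF and 0.725 in bcatKO_CAF over NF, and Fgfr4 0.783, 0.534 and 0.907.

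Genes called in bcatKO_CAF over NF numbered 1 without a filter, 6 in DESeq2 and 0 to 2659 when single libraries were left out, with 0 to 2 members among them. The other counts of calls stayed within 1.5 times, at 4966 to 5259 (bcatKO_CAF over CAF) and 4685 to 6648 (CAF over NF) without single libraries, against 6332 and 5713. The cause of these changes was not tested. No paired analysis was possible because the labels carry no replicate numbers, and the numbers used here follow the order of the records. Depth limits Fgf18, Fgfr3 and Fgfr4, and Fgf10, Fgf21 and Fgfr2 outside CAF.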
